A study of Homo sapiens with 2 samples.

Results

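Molecular chaperones of the cytosol and the proteins that work with them were examined in an RNA immunoprecipitation sequencing (RIP-seq) experiment on HUH7, a long-cultured cell line derived from human hepatocellular carcinoma. The tested library held RNA recovered with an immunoprecipitation (IP) of CSTF2, and the other held Input RNA of the same line. Each group had 1 library, neither carried a stated treatment or genetic change, and a mock immunoprecipitation was not used here. The members were the listed features whose symbol begins with HSP90A, HSPA, HSPB, HSPH, DNAJA, DNAJB or DNAJC, with CCT or BAG and a digit, or is TCP1. HSPA5, HSPA9, DNAJB9, DNAJC19, names with a hyphen and names ending in P and digits were left out, and the last of these conditions also removed the genes HSPBP1 and HSPBAP1. The rule took 67 of the 14914 listed features, and no measured value entered it.

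The names did not all match a cytosolic location. By textbook knowledge DNAJB11, DNAJC1, DNAJC3, DNAJC10, DNAJC25 and HSPA13 encode proteins of the endoplasmic reticulum or its membrane, and DNAJA3, DNAJC11 and DNAJC15 encode mitochondrial proteins. This list is not complete. HSP90AA2P, HSP90AB3P and HSP90AB4P are annotated as processed pseudogenes. HSPB11, although named as a small heat shock protein, encodes a subunit of the intraflagellar transport complex (IFT25).

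Chaperones bind unfolded or partly folded proteins and keep them from aggregating. HSP70 proteins, encoded by HSPA genes, hold and release clients in a cycle driven by ATP. J-domain proteins of the DNAJ families bring clients to HSP70 and start ATP hydrolysis, while the HSP110 proteins and several BAG proteins exchange the nucleotide. HSP90 receives clients such as kinases and steroid receptors from HSP70, and the ring-shaped chaperonin built of TCP1 and CCT subunits folds actin and tubulin. Within the cleavage stimulation factor, CSTF2 is the protein that contacts RNA, and it binds the nascent RNA downstream of the polyadenylation signal, a hexamer near the 3′ end of most mRNAs. The series asks which RNAs of this line are bound by CSTF2.

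The annotated 3′ ends of the members on which the results turn are shown because the hexamer lies in the stretch that the cleavage machinery reads. Each is the last 30 bases, 5′ to 3′, of 1 coding transcript of GENCODE v29 (GRCh38), with every match to the hexamers AATAAA and ATTAAA in capitals, overlapping matches included. They end DNAJC22 (plus strand, chr12:49353655-49353684), HSPB11 (minus strand, chr1:53921561-53921590), BAG2 (plus strand, chr6:57189804-57189833), HSP90AB1 (plus strand, chr6:44253854-44253883), HSP90AA1 (minus strand, chr14:102080738-102080767), HSPA1A (plus strand, chr6:31817917-31817946) and HSPA1B (plus strand, chr6:31830226-31830255).
DNAJC22: aaaAATAAATAAATAAATAAAgtggaatta
HSPB11: gatatactttATTAAAaggatttttatcaa
BAG2: tcatttgaaAATAAAaacatatacacaata
HSP90AB1: gcaaAATAAAgaatatgccgtttttataca
HSP90AA1: taaatacagtcacttaattccttggcctta
HSPA1A: caaagtaAATAAActttaaaattcaagtga
HSPA1B: taaatatgaaaAATAAAatgttaaactttt
The window of DNAJC22 holds 4 overlapping matches to AATAAA, and each of the other printed windows with a match holds 1. That number is not particular to DNAJC22. The window of DNAJC24, not printed, also holds 4 hexamer matches. Its log2 ratio of IP over Input was 0.15, against 2.08 for DNAJC22. HSP90AA1 holds neither hexamer in this window. Among 52 coding members past the filter on low values described below, 31 (59.6%) held AATAAA in that window on the transcript strand, 4 (7.69%) held ATTAAA without AATAAA, and 17 (32.7%) held neither. Over 7595 protein-coding features the shares were 54.4%, 13.1% and 32.5%. The median log2 ratio of IP over Input was 0.21 for members with AATAAA and 0.13 for members with neither, against 0.16 and 0.13 over all protein-coding features. The 4 members with ATTAAA had a median of -0.40, against 0.13 over 993 protein-coding features with it, and 4 genes are too few to describe a class. A match describes the annotated letters and does not show which site the cells used. The annotated genes DNAJC22 and HSPB11 extend downstream of the printed windows, to position 49357546 and, on the minus strand, to 53916574. More distal ends of these 2 genes are not shown. The sequence downstream of the cleavage site was not analysed here.

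The values are RPKM, reads scaled to gene length and library depth. Reads recovered from the deposited values put the depth at 3220045 assigned reads in IP RNA and 9517885 in Input RNA. Members past the filter were covered by 123 reads in IP RNA and 297.5 in Input RNA at the median. Among features with 1 to 29 reads, 74.0% had an even number in IP RNA and 71.4% in Input RNA, so both mates of a read pair appear to have been counted for many fragments. All 95% intervals below are intervals of the ratio computed from the reads divided by 2. An odd read number divided by 2 is not whole, and not every fragment had both mates counted, so these intervals are approximate. They cover counting error only, PCR copies are not independent molecules, and there is no replicate error, so no p-value is given. RPKM give shares within each library, so a ratio does not measure how much RNA the IP recovered. CSTF2 mRNA had 487 RPKM in IP RNA and 6.97 RPKM in Input RNA. The liver markers ALB, for albumin, and AFP, for alpha-fetoprotein, were at 200.3 and 26.9 RPKM in IP RNA and at 254 and 30.7 RPKM in Input RNA.

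The chaperone mRNAs as a group lay close to the Input. The log2 ratio used is log2((IP + 1)/(Input + 1)), where the added 1 RPKM shrinks the ratio of weakly expressed features. It was taken where the mean of both libraries reached 1 RPKM. Of the 67 members, 54 passed that filter. Of these, 2 (DNAJC22 and HSP90AB4P) were higher in the IP by at least 2-fold, 2 (HSPB11 and BAG2) were lower by at least 2-fold, and 50 were within 2-fold. Over the 9880 features past the filter 9.88% were higher by that much and 6.83% lower. Over the protein-coding features among them the shares were 5.81% and 5.19%. The median log2 ratio was 0.13 over the members and 0.17 over all features, so relative to all features the members' median was -0.045. The quartiles of the members were -0.22 and 0.43, and those of all features -0.31 and 0.60.

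**Figure D1:**
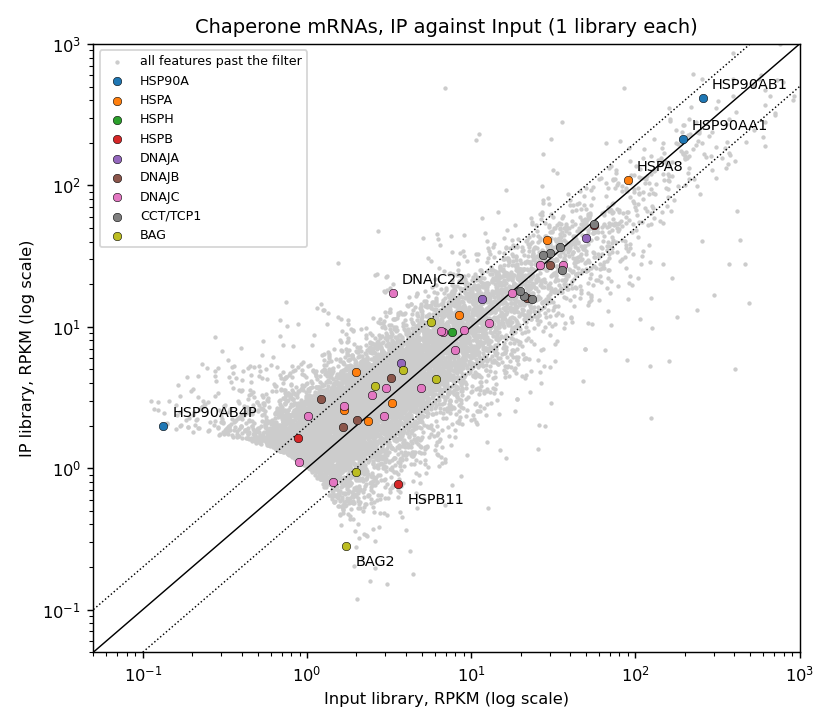
RPKM in the IP library (vertical, log scale) against RPKM in the Input library (horizontal, log scale) for 54 chaperone members (coloured by family) and all features past the filter that lie between 0.05 and 1000 RPKM in both libraries (grey). The solid line marks equal values and the dotted lines a ratio of 2 in each direction, and among the members DNAJC22, HSP90AB4P, HSPB11 and BAG2 are labelled far from the diagonal.

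Single members could still be told from a ratio of 1. The counting interval of the ratio lay wholly above 1 for 18 members and wholly below 1 for 7, and it included 1 for 29. Over all features past the filter 26.7% had an interval wholly above 1 and 13.4% wholly below. These shares depend on depth, since a well covered gene has a narrow interval.

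HSP90 was the family with the highest levels. HSP90AB1, the constitutive cytosolic HSP90 (chromosome 6, 44246166 to 44253888, plus strand), had 415 RPKM in IP RNA and 257 RPKM in Input RNA, from 3986 and 7296 reads. HSP90AA1, the stress-inducible cytosolic HSP90 (chromosome 14, 102080738 to 102139699, minus strand), had 213 RPKM in IP RNA and 194 RPKM in Input RNA, from 3596 and 9714 reads. The ratio was 1.61 (95% interval 1.53 to 1.71) for HSP90AB1 and 1.09 (1.04 to 1.16) for HSP90AA1, and these intervals do not overlap. Relative to the median of all features the log2 ratio was 0.52 for HSP90AB1 and -0.044 for HSP90AA1, so the direction of HSP90AA1 turns with that centring. The turn depends on which features set the median. Uncentred, HSP90AA1 had 0.13, under the median of 0.17 used here but over the 0.041 found with a filter of 5 RPKM. By RPKM HSP90AB1 ranked 58 in IP RNA and 93 in Input RNA among all listed features. The 5 features of the family together held 44.99% of the members' summed RPKM in IP RNA and 37.7% in Input RNA.

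The HSP90 pseudogenes rested on few reads. HSP90AB4P (chromosome 15, 58691106 to 58693125, minus strand) had 10 reads and 1.97 RPKM in IP RNA and 2 reads and 0.134 RPKM in Input RNA. Its ratio of 14.8 had an interval of 1.65 to 699, and with a mean of 1.05 RPKM it passed the filter only through the IP, where it is high. HSP90AB3P had 4 reads in each library, and HSP90AA2P had 2 in IP RNA and 14 in Input RNA. Reads from a parent gene can be placed on such copies. The transcript of HSP90AB4P shared 81.3% of its bases with HSP90AB1 by alignment and no 100-base stretch without a mismatch. HSP90AB3P was 97.1% identical to HSP90AB1, and HSP90AA2P 97.1% identical to HSP90AA1. The part of shared reads in the value of HSP90AB4P was not tested.

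Of the 10 HSPA members, 7 passed the filter, none was past 2-fold and the median log2 ratio was 0.42. HSPA8, the constitutive HSP70 that also uncoats clathrin vesicles, had the highest RPKM of these. It had 109 RPKM in IP RNA and 90.0 RPKM in Input RNA, a ratio of 1.21 (1.11 to 1.31). HSPA4, an HSP110-type exchange factor, had 41.1 RPKM in IP RNA and 28.8 RPKM in Input RNA, a ratio of 1.43 (1.25 to 1.63). Both intervals lay above 1. HSPA2, an HSP70 abundant in testis, had 2.15 RPKM in IP RNA and 2.36 RPKM in Input RNA, and HSPA14, which works with DNAJC2 on ribosomes, had 2.90 RPKM in IP RNA and 3.31 RPKM in Input RNA. Their ratios of 0.909 (0.522 to 1.52) and 0.876 (0.504 to 1.46) could not be told from 1. HSPH1, an HSP110 protein from the related HSPH family, had 9.25 RPKM in IP RNA and 7.66 RPKM in Input RNA, a ratio of 1.21 (0.973 to 1.49). For comparison with relatives that the rule left out, the mitochondrial HSP70 gene HSPA9 had a ratio of 7.83 (7.22 to 8.50) and the endoplasmic reticulum HSP70 gene HSPA5 a ratio of 0.978 (0.902 to 1.06).

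The heat-inducible pair HSPA1A and HSPA1B, neighbouring genes on chromosome 6 (31815464 to 31817946 and 31827735 to 31830255, both plus strand), each have a single exon. HSPA1A had 97 reads and 12.1 RPKM in IP RNA and 198 reads and 8.38 RPKM in Input RNA, a ratio of 1.45 (1.01 to 2.06). HSPA1B had 39 reads and 4.80 RPKM in IP RNA and 48 reads and 2.00 RPKM in Input RNA, a ratio of 2.40 (1.25 to 4.55). HSPA1B had a log2 ratio of 0.95, the highest of the members that stayed within 2-fold. Of the 100-base windows of the HSPA1A transcript, 69.9% occur without a mismatch in HSPA1B, although the last 30 bases printed above differ. Reads of the pair can be split between them by the counting, so their separate values are uncertain. HSPA1L, the third HSP70 gene of that cluster, had 4 reads in IP RNA and 0 in Input RNA. A count of 0 allows up to 3 fragments, or 0.248 RPKM, in Input RNA, and the 4 IP reads are themselves under that number of fragments, so no fold is given. HSPA12A had 0 reads in the IP, which allows up to 0.266 RPKM, and 10 reads and 0.150 RPKM in Input RNA, so a difference was not detectable at this depth.

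Small heat shock proteins hold unfolded clients without using ATP, and of the 4 members named HSPB, 3 passed the filter. HSPB1, also known as HSP27, had 52.5 RPKM in IP RNA and 55.6 RPKM in Input RNA, a ratio of 0.943 (0.773 to 1.14). HSPB8, which works with BAG3 in the autophagy of misfolded proteins, had 1.63 RPKM in IP RNA and 0.882 RPKM in Input RNA, and its interval of 0.637 to 4.997 included 1. HSPB11 (chromosome 1, 53916574 to 53945929, minus strand) had the lowest log2 ratio of the members past the filter, -1.38. It had 8 reads and 0.768 RPKM in IP RNA and 111 reads and 3.60 RPKM in Input RNA, which is 4.69-fold lower in the IP (1.73 to 17.8).

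**Figure D2:**
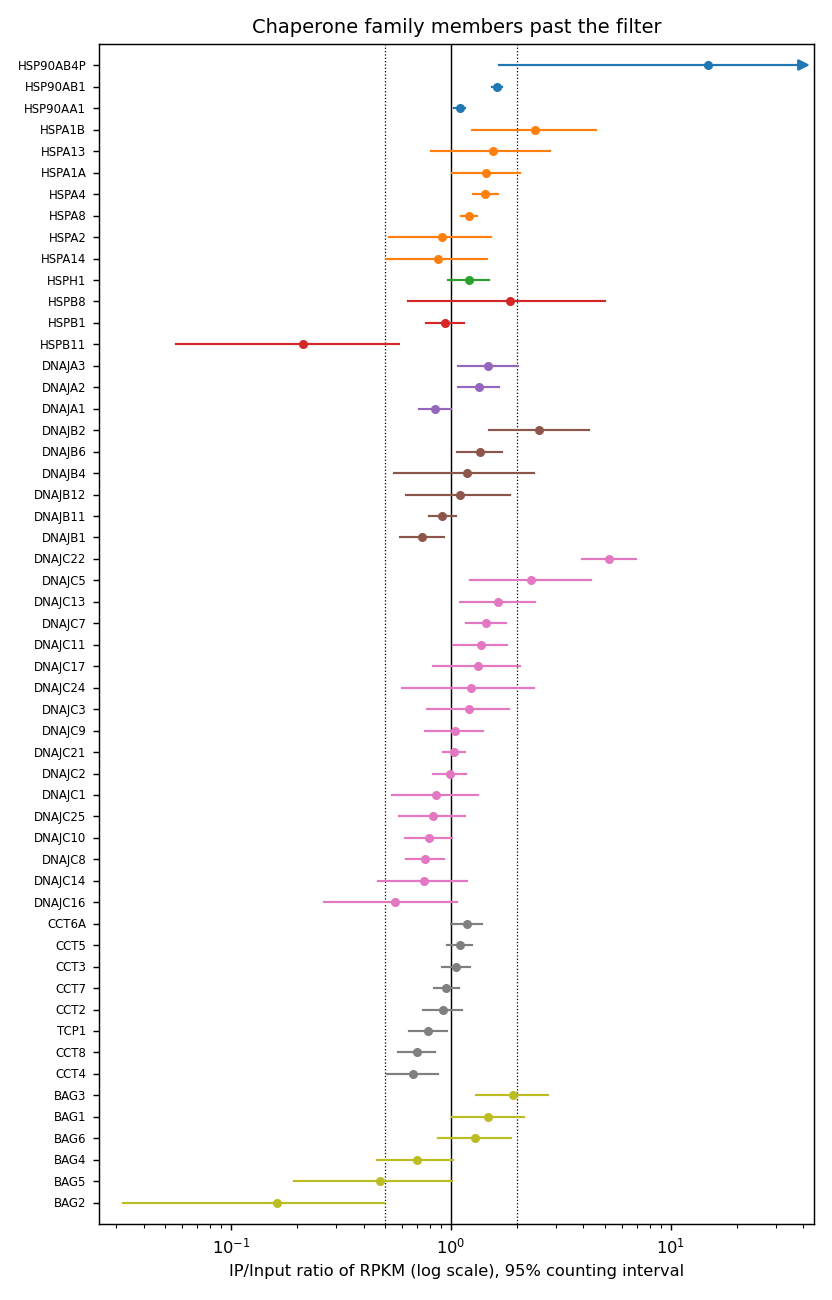
Ratio of IP to Input RPKM (horizontal, log scale) for each of the 54 members past the filter, grouped by family, with the 95% counting interval from reads divided by 2 as a line. The solid vertical line is a ratio of 1, the dotted lines are 0.5 and 2, the arrow marks an interval that runs past the axis (HSP90AB4P), and the interval of DNAJC22 lies wholly above 2.

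J-domain proteins are the largest group, with 33 members in the DNAJA, DNAJB and DNAJC families, of which 26 passed the filter. DNAJC22, on chromosome 12 (49346917 to 49357546, plus strand), stood highest of all members by log2 ratio, at 2.08. It encodes a membrane J-domain protein whose Drosophila counterpart, Wurst, acts in clathrin-mediated endocytosis. It had 280 reads and 17.4 RPKM in IP RNA and 159 reads and 3.34 RPKM in Input RNA, a ratio of 5.21 (3.93 to 6.94). None of its annotated exon bases was shared with another listed feature.

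The other DNAJC genes were within 2-fold. DNAJC5, for cysteine string protein of secretory vesicles, had 40 reads and 2.35 RPKM in IP RNA and 51 reads and 1.01 RPKM in Input RNA, a ratio of 2.32 (1.22 to 4.33) that is less than 2-fold on the pseudocount scale. DNAJC8, a splicing-associated protein gene and the DNAJC member with the highest Input level, had 27.4 RPKM in IP RNA and 36.1 RPKM in Input RNA, which is 1.31-fold lower (1.08 to 1.61). DNAJC16 had 22 reads and 0.798 RPKM in IP RNA and 117 reads and 1.44 RPKM in Input RNA, and its interval of 0.263 to 1.07 included 1. The well covered DNAJC21, needed for ribosome assembly, and DNAJC2, a ribosome-associated chaperone, had ratios of 1.04 (0.923 to 1.16) and 0.984 (0.829 to 1.17). Over the 17 DNAJC genes past the filter the median log2 ratio was 0.05, with 5 intervals wholly above 1 and 1 wholly below. Over all features these shares were 26.7% and 13.4%, so 5 of 17 is close to the background. Besides DNAJC22 and DNAJC5, those above 1 belonged to DNAJC13, an endosomal protein gene, at 1.64 (1.10 to 2.42), DNAJC7, whose product also binds HSP90, at 1.44 (1.17 to 1.77), and the mitochondrial DNAJC11 at 1.36 (1.03 to 1.80).

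Among the DNAJA genes, DNAJA1 had 42.2 RPKM in IP RNA and 49.7 RPKM in Input RNA, a ratio of 0.849 (0.717 to 1.001). DNAJA2 had 15.6 RPKM in IP RNA and 11.7 RPKM in Input RNA, a ratio of 1.34 (1.08 to 1.66). The mitochondrial DNAJA3 had 5.53 RPKM in IP RNA and 3.76 RPKM in Input RNA, a ratio of 1.47 (1.07 to 2.01). The intervals of DNAJA2 and DNAJA3 lay above 1 and above that of DNAJA1. Over all features 26.7% had an interval wholly above 1, and the 3 DNAJA genes past the filter are too few to describe a family.

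Of the 6 DNAJB genes past the filter, 2 had an interval wholly above 1, 1 wholly below, and 3 included 1. Over all features the shares wholly above and wholly below were 26.7% and 13.4%. DNAJB1, the heat-inducible HSP40, had 190 reads and 16.1 RPKM in IP RNA and 761 reads and 21.8 RPKM in Input RNA, which is 1.36-fold lower (1.08 to 1.72). DNAJB2, which carries ubiquitin-binding motifs, had 58 reads and 3.06 RPKM in IP RNA and 68 reads and 1.21 RPKM in Input RNA, a ratio of 2.52 (1.48 to 4.26) and a log2 ratio of 0.88. DNAJB6, a suppressor of polyglutamine aggregation, had 4.37 RPKM in IP RNA and 3.23 RPKM in Input RNA, a ratio of 1.35 (1.06 to 1.71). DNAJB1 was thus lower in the IP while both of the others were higher, each with an interval that excludes 1. DNAJB11, with the highest Input RPKM of the family, had 27.5 RPKM in IP RNA and 30.2 RPKM in Input RNA, a ratio of 0.913 (0.790 to 1.05).

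All 8 subunit genes of the chaperonin passed the filter, and all were within 2-fold, with log2 ratios from -0.55 to 0.23 and a median of -0.10. CCT4 had 15.7 RPKM in IP RNA and 23.4 RPKM in Input RNA, CCT8 had 25.004 RPKM in IP RNA and 35.9 RPKM in Input RNA, and TCP1 had 16.6 RPKM in IP RNA and 21.1 RPKM in Input RNA. Their ratios of 0.670 (0.511 to 0.868), 0.697 (0.573 to 0.842) and 0.788 (0.646 to 0.957) lay below 1. The other 5 had intervals that included 1. Among all features past the filter 13.4% had an interval wholly below 1 and 26.7% wholly above.

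CCT2 had 18.0 RPKM in IP RNA and 19.7 RPKM in Input RNA, a ratio of 0.915 (0.743 to 1.12). CCT7, the subunit gene with the highest RPKM, had 52.9 RPKM in IP RNA and 55.6 RPKM in Input RNA, a ratio of 0.952 (0.834 to 1.08). CCT3 had 36.6 RPKM in IP RNA and 34.7 RPKM in Input RNA, a ratio of 1.05 (0.905 to 1.22). CCT5 and CCT6A stood highest, with ratios of 1.10 (0.958 to 1.25) and 1.18 (0.996 to 1.39) from 33.0 and 32.1 RPKM in IP RNA and from 30.2 and 27.2 RPKM in Input RNA. The subunits are present in equal number in the assembled ring. Their values spread from 15.7 to 52.9 RPKM in IP RNA and from 19.7 to 55.6 RPKM in Input RNA. These RPKM are scaled to a gene length that can exceed the mRNA. It was 4929 bases for TCP1 and 2830 for CCT4, against coding transcripts of 2499 and 2520 bases. The spread therefore does not compare numbers of mRNA molecules between subunits.

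**Figure D3:**
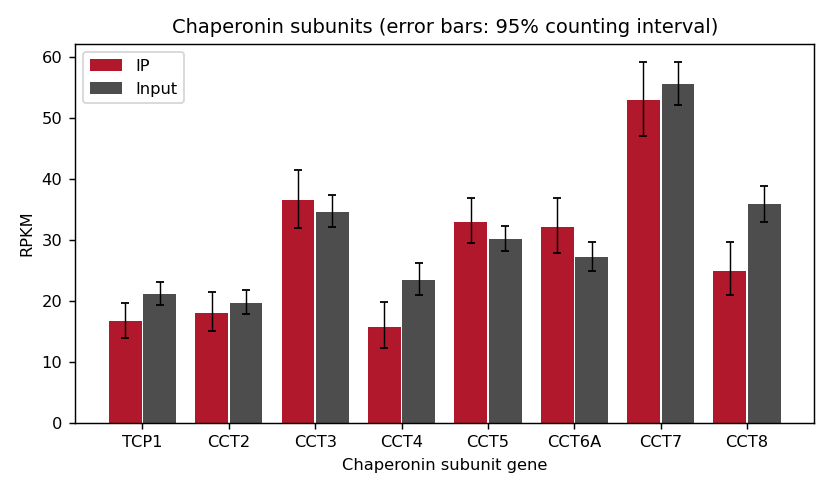
RPKM of the 8 chaperonin subunit genes in the IP library (red, left bar) and the Input library (grey, right bar). Error bars are approximate 95% Poisson counting intervals from reads divided by 2. The bars of CCT7 are the tallest in both libraries, and CCT4, CCT8 and TCP1 are lower in the IP.

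The BAG genes, several of which encode exchange factors that bind the ATPase domain of HSP70, had log2 ratios from -1.10 to 0.82 over 6 genes. BAG3, the stress-inducible member that directs clients to autophagy, had 96 reads and 10.9 RPKM in IP RNA and 149 reads and 5.70 RPKM in Input RNA, a ratio of 1.90 (1.30 to 2.77). BAG1 had 3.84 RPKM in IP RNA and 2.60 RPKM in Input RNA, a ratio of 1.48, with an interval whose lower end, 1.005, lay just above 1. BAG4, a silencer of death receptors, had 4.26 RPKM in IP RNA and 6.12 RPKM in Input RNA, a ratio of 0.697 (0.462 to 1.02). Its Input RPKM was the highest of the family, a ranking that depends on the gene lengths used for scaling. BAG5 had 16 reads and 0.943 RPKM in IP RNA and 100 reads and 1.99 RPKM in Input RNA, and its log2 ratio of -0.62 was the lowest of the members within 2-fold.

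BAG2, an inhibitor of the ubiquitin ligase STUB1 (chromosome 6, 57172326 to 57189833, plus strand), had 6 reads and 0.280 RPKM in IP RNA and 110 reads and 1.74 RPKM in Input RNA. This is 6.20-fold lower in the IP (2.01 to 31.0), with a log2 ratio of -1.10. With a mean of 1.01 RPKM it passed the filter only through the Input. Of its exon bases, 42.7% overlap exons of RAB23 on the opposite strand. RAB23 had 12 reads in IP RNA and 58 in Input RNA. No protocol in the labels says whether libraries kept strand, so reads of the overlap cannot be assigned to either gene.

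The 13 members below the filter were HSP90AA2P, HSP90AB3P, HSPA12A, HSPA1L, HSPA4L, HSPB6, DNAJA4, DNAJB5, DNAJB14, DNAJC6, DNAJC15, DNAJC18 and DNAJC27. DNAJC27, for a J-domain protein fused to a RAB-like GTPase, had 10 reads in IP RNA and 2 in Input RNA, a ratio of 14.8 with an interval of 1.65 to 699. DNAJC15, of the mitochondrial inner membrane, had 8 reads and 0.309 RPKM in IP RNA and 84 reads and 1.10 RPKM in Input RNA, 3.55-fold lower in the IP (1.29 to 13.6). At these levels the pseudocount holds both within 2-fold on the log2 scale used.

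The wider chaperone system was described by a list of 38 further genes, of which 35 passed the filter. None of the 35 was at least 2-fold higher in the IP, 3 were at least 2-fold lower, and the median log2 ratio was -0.02. Over all features 9.88% were higher and 6.83% lower by that much, so 3 of 35 is close to the background. The lower ones included both VBP1 and PFDN4, subunits of prefoldin, which passes unfolded actin and tubulin to the chaperonin. VBP1 had 3.54 RPKM in IP RNA and 11.97 RPKM in Input RNA, 3.38-fold lower (1.84 to 6.85). PFDN4 had 4.40 RPKM in IP RNA and 11.4 RPKM in Input RNA, 2.60-fold lower (1.48 to 4.91). All 6 prefoldin genes had log2 ratios below 0, with a median of -0.75, and 5 had intervals wholly below 1. The share of all features with such an interval was 13.4%. The prefoldin genes were 677 to 3380 bases long, and a relation of their ratios to gene length was not tested. HSBP1, which binds heat shock factors, had 3.65 RPKM in IP RNA and 8.76 RPKM in Input RNA, 2.40-fold lower (1.81 to 3.23).

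HSF1, the transcription factor that drives the heat shock genes, had 2.81 RPKM in IP RNA and 2.06 RPKM in Input RNA, a ratio of 1.36 (0.804 to 2.25). HSF4, below the filter, had 16 reads in IP RNA and 6 in Input RNA. Its ratio was 7.88 (1.89 to 46.1) and its log2 ratio 1.06. HSF2 had 5 reads in IP RNA and 54 in Input RNA, 3.65-fold lower (1.03 to 23.2), with a log2 ratio of -0.98. The 15 co-chaperones of HSP90 had a median log2 ratio of 0.07, with 4 intervals wholly above 1 and 1 wholly below (26.7% and 13.4% of all features), and the 4 co-chaperones of HSP70 past the filter had a median of 0.28 with every interval including 1. The 4 genes of the R2TP complex, which assembles larger complexes with HSP90, had a median of 0.05.

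**Figure D4:**
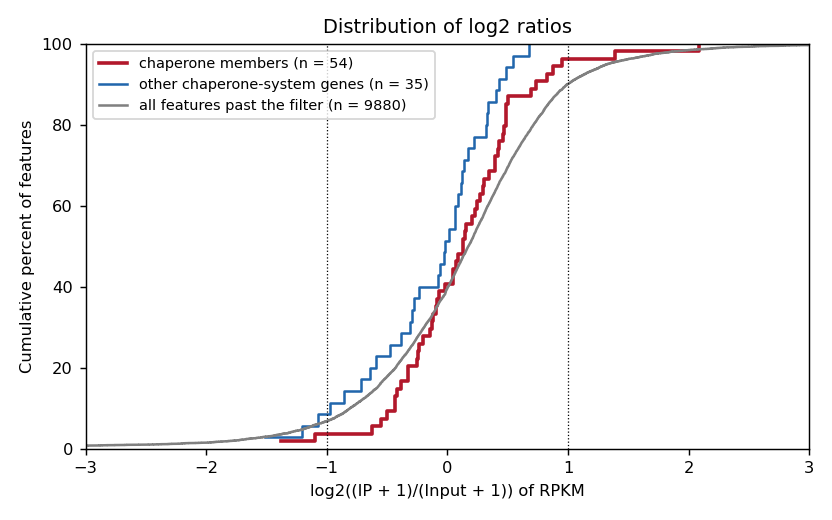
Cumulative percent of features (vertical) by log2((IP + 1)/(Input + 1)) of RPKM (horizontal) for 54 chaperone members (red), 35 other chaperone-system genes (blue) and 9880 features past the filter (grey), with values past 3 in either direction not drawn. The dotted lines mark 2-fold, and the red curve has a median of 0.13, the blue one -0.02 and the grey one 0.17.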

How the data were processed

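RNA was measured by RIP-seq in 1 IP and 1 Input library, grouped by sample title. The authors deposited 1 table with RPKM in each library and the log2 fold change between them (IP over Input), per the file headers. FastQC 0.12.0 and the build hg38 appear among the submitters' processing notes. Which aligner, counter and annotation were used is not given in the sources used here. The deposited log2 fold change of the authors was used only to solve for reads. It has the form of log2 reads plus a prior averaging 0.125 reads, which with the RPKM ratio gave whole reads (tolerance 0.01) and a whole gene length for 14913 of 14914 features, and for all members. On 2989 simulated features 99.8% were recovered exactly. Symbols were placed with GENCODE v29 on GRCh38, where 66 of 67 members had 1 gene and HSPA14 had none that was unique. The table's length equalled the exon union for 57. Ratio intervals are conditional (Clopper-Pearson) at 95%, from reads divided by 2, since even read numbers prevailed. They are approximate because odd read numbers divided by 2 are not whole. The 3′ ends come from 1 transcript a gene, APPRIS principal first, then the longest. Transcript identity was computed with edlib 1.3.9.post1, the rest with Python 3.11.15, numpy 2.4.6, pandas 2.3.3 and scipy 1.17.1.

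The members and lists were chosen with earlier results of these data known. Named with values are members past 2-fold, and in each family the highest Input RPKM and the 2 highest and 2 lowest log2 ratios. Also named are members at 0 in a library, HSPA1A and HSPA1B, the members next to the 2-fold threshold, the chaperonin subunits, HSF1, and list genes past 2-fold. DNAJC2, DNAJC7, DNAJC11, DNAJC13, DNAJC15, DNAJC21, DNAJC24, DNAJC27, HSF2, HSF4 and the relatives HSPA5 and HSPA9 were named after their values were seen. Alternatives covered the pseudocount, filter, scaling, fold, read number and members included.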

Additional observations from a re-analysis of the deposited data

How the results depend on the processing

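No paired analysis was possible because each group has 1 library and the labels give no replicate numbers. The 2 members at least 2-fold higher became 5 with a pseudocount of 0.1 RPKM and 7 at 1.5-fold. They became 1, DNAJC22, with a pseudocount of 5 RPKM, a filter of 5 RPKM, no pseudogenes, at least 20 reads, or a counting interval wholly beyond 2-fold. The 2 lower became 3 with a pseudocount of 0.1 RPKM or at 1.5-fold, 0 with a pseudocount or a filter of 5 RPKM, 1 (BAG2) by the counting interval, and 1 (HSPB11) without the 5 members that share at least 20% of exon bases with another feature. At 1.5-fold 26.0% of all features were higher and 15.0% lower. The members' median log2 ratio of 0.13 turned to -0.045 when centred on the median of all features, as that centring subtracts 0.17. Under the other alternatives the members' median stayed between 0.049 and 0.13. The median of all features moved as well. It was 0.23 with a pseudocount of 0.1 RPKM, where the members had 0.13. With a filter of 5 RPKM it was 0.041, where the members had 0.049. DNAJC22 was past 2-fold under every alternative run, and HSP90AB4P was past it with intervals from undivided reads. The alternatives on overlap, undivided reads and cellular location were chosen after the data were seen. Members with under about 20 reads are limited by depth.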

Other observations

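Across the 7596 protein-coding features with a recovered length, the log2 ratio went with the log2 gene length of the table (Pearson r 0.402, Spearman rho 0.384), and across 52 coding chaperone members past the filter the values were 0.0645 and 0.123. Genes are not independent replicates, all values share the same pair of libraries, and the difference between these correlations was not tested. With log2 mean RPKM the members had 0.0404 (Pearson) and -0.0716 (Spearman), and the 7597 protein-coding features had -0.119 and -0.114. The 2 single-exon members past the filter, HSPA1A and HSPA1B, had log2 ratios with a median of 0.72, and the value was 0.11 for the 50 members with several exons. Over all protein-coding features the medians were -0.012 for 182 single-exon genes and 0.15 for 7415 with several exons.

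Even read numbers were frequent among weakly covered features and less so among well covered ones. In the IP 5937 of 8027 features with 1 to 29 reads had an even number, and 51.0% of those with 300 to 1000 reads. In the Input the values were 3340 of 4675 and 53.3%. Among the chaperone members with 1 to 29 reads, 17 of 20 were even in the IP and 8 of 8 in the Input.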
